A study of Mus musculus with 2 samples.

Results

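Translation initiation factors are the proteins that bring the initiator tRNA, the ribosome and an mRNA together before the first peptide bond is made. Their genes were taken as all symbols of the expression tables that begin with Eif1 to Eif6, with the eIF2 kinases (Eif2ak genes) and the Y-linked Eif2s3y left out. The rule found 53 of 23284 genes. 4 of them, Eif2c1 to Eif2c4, are older symbols of the Argonaute genes Ago1 to Ago4, whose proteins carry small RNAs and are no initiation factors. They are counted as the symbols require and described separately.

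The values come from RNA-seq of BCR-ABL-driven leukemic stem cells of the mouse, with 1 library of WT cells and 1 of STAP-1 KO cells, a deletion of the adaptor protein STAP-1. LSK bone marrow cells (lineage negative, Sca-1+ and Kit+) of C57BL/6J donors were transduced with a retrovirus that carries human BCR-ABL and GFP and were transplanted into lethally irradiated Ly5.1 recipients. GFP+ CD45.2+ LSK cells were sorted on day 11, so both groups carry BCR-ABL and GFP and differ in Stap1 alone by design. Mice were 8 to 14 weeks old, and the number of mice behind a library is not given in the sources used here. With 1 library per genotype no difference has a replicate check and no test was made. Each value is FPKM (fragments normalised to transcript length and to library size), and each fold or log2 ratio below sets STAP-1 KO against WT, with 0.1 FPKM added to both values for log2 ratios. Stap1 was at 62.0 FPKM in WT and 0.309 FPKM in STAP-1 KO.

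In the scanning model, eIF2 loaded with GTP and initiator tRNA joins eIF1, eIF1A, eIF3 and eIF5 on the small ribosomal subunit. The cap-binding complex eIF4F, made of eIF4E, the scaffold eIF4G and the helicase eIF4A, recruits this assembly to the mRNA, and eIF5B joins the large subunit. eIF2B recharges eIF2 with GTP, 4E-BPs hold eIF4E away from eIF4G, and eIF5A, which carries the modified lysine hypusine, helps ribosomes past difficult peptide bonds. BCR-ABL is known to drive cap-dependent translation through the mTOR and MNK kinases in CML cells.

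Most of the initiation factor mRNAs were modestly higher in the STAP-1 KO library, while Eif4g1 and Eif4g3, for the eIF4G scaffold, were lower. Of the 50 members that averaged 1 FPKM or more over both libraries, 38 (76.0%) had a log2 ratio above 0, against 48.3% of all 10974 genes at that level. The median log2 ratio was 0.45 over the members and -0.04 over all genes. The members' summed FPKM was 5073 in WT and 7533 in STAP-1 KO, which was 0.781% and 1.25% of all FPKM. Few differences were large. Of 52 members with at least 0.1 FPKM in both libraries, 1 was at least 2-fold higher, against 12.3% of all genes tested, and 6 were at least 2-fold lower, against 22.9%. At a fold of 1.5, 22 members were higher (42.3%, against 25.6% of all genes) and 9 were lower (17.3%, against 32.8%). Ratios in these libraries moved with transcript length, so each was also taken relative to the median of all genes of like length (the length correction). After it, 11 of 52 members were at least 1.5-fold higher and 4 at least 1.5-fold lower, against 24.1% and 28.9% of all genes, so the share of higher calls was near that of all genes. Without the Argonaute genes the median log2 ratio was 0.49, and 3 members were at least 2-fold lower.

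**Figure D1:**
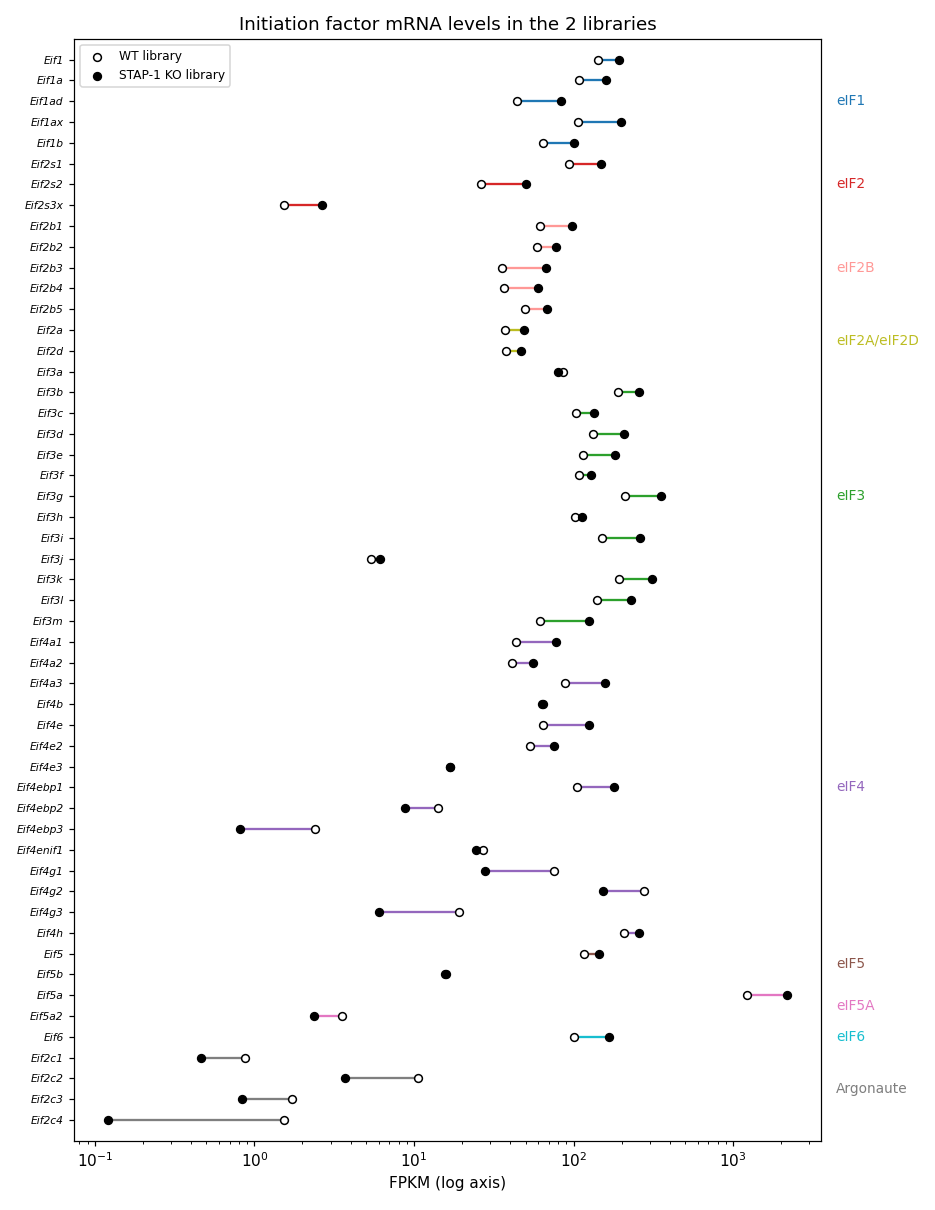
FPKM of each initiation factor gene (log axis) in the WT library (open circles) and the STAP-1 KO library (filled circles), joined by a line and ordered by complex; Eif4e1b, at 0 in both, is not drawn. Filled circles lie to the right for every eIF1, eIF2 and eIF2B gene and to the left for the 3 Eif4g and the 4 Eif2c genes.

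The genes of the eIF1 group, factors of the start codon search, were all higher in STAP-1 KO as deposited, and 4 of 5 after the length correction, where Eif1 was at -0.07. eIF1, which guards the choice of start codon, is encoded by Eif1 (142 FPKM in WT and 193 FPKM in STAP-1 KO) and its close relative Eif1b (64.0 and 101 FPKM). Eif1a was at 108 FPKM in WT and 160 FPKM in STAP-1 KO. The X-linked Eif1ax, for the same small factor eIF1A, was at 107 FPKM in WT and 199 FPKM in STAP-1 KO, a ratio of 1.86. Both eIF1A genes thus stood at nearly the same level in WT, and the X-linked one was the higher in STAP-1 KO. Eif1ad, for a protein with an eIF1A-like domain that is no core initiation factor, was at 44.3 FPKM in WT and 83.3 FPKM in STAP-1 KO. It overlaps Banf1, which was at 293 and 725 FPKM, and reads of the overlap cannot be told apart. The median log2 ratio of the 5 genes was 0.66.

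The alpha and beta subunit genes of eIF2, which carries the initiator tRNA, were between 1.5 and 2-fold higher, and the gamma subunit has 2 genes that went opposite ways. Eif2s1 (eIF2 alpha, the subunit that stress kinases phosphorylate; chromosome 12, 78861819 to 78887010, GRCm38) was at 93.4 FPKM in WT and 148 FPKM in STAP-1 KO, a ratio of 1.59. Eif2s2 (eIF2 beta) was at 26.2 FPKM in WT and 50.2 FPKM in STAP-1 KO, a ratio of 1.92. Eif2s3x, the X-linked gene of eIF2 gamma, the subunit that binds GTP, was at 1.54 FPKM in WT and 2.66 FPKM in STAP-1 KO. That ratio of 1.73 rests on an estimated 39.7 and 95.7 reads, which give a counting interval (95%) of 0.24 to 1.35 for the log2 ratio. The median log2 ratio of the 3 genes was 0.75, which is the value of Eif2s3x itself, and 0.67 with Eif2s2 and Eif2s3x left out for their shared sequence.

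Eif2s3y, the Y-linked copy of the gamma subunit gene, showed the opposite direction at a far higher level. It was at 69.3 FPKM in WT and 44.9 FPKM in STAP-1 KO, a log2 ratio of -0.62 as deposited and -0.93 after the length correction. The Y-linked value was 45.0 times the X-linked one in WT and 16.9 times in STAP-1 KO. The summed FPKM of both genes was 70.8 in WT and 47.6 in STAP-1 KO, a ratio of 0.672. Nearly all of that sum was Eif2s3y and the Eif2s3x part is uncertain, so it is no measure of total gamma subunit mRNA. The study's methods do not give the sex of the mice. For Eif2s3x, 35.7% of the 75-base stretches of its transcript also occur in another gene, mainly the pseudogene Gm2223, and for Eif2s2 22.4%. How such reads were assigned is not given in the sources used here, and the levels of these genes are uncertain for that reason.

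eIF2B, the 5-subunit exchange factor that returns eIF2 to its GTP form, was higher in all subunits as deposited, with a median log2 ratio of 0.65. After the length correction the median was 0.34 and 4 of 5 were above 0, with Eif2b2 at -0.05. Of the regulatory subunits, Eif2b1 was at 62.1 FPKM in WT and 97.2 FPKM in STAP-1 KO. Eif2b2 was at 59.0 and 77.7 FPKM. Eif2b4 was at 36.5 and 59.8 FPKM. The catalytic pair differed more from each other than the regulatory subunits did. Eif2b3 was at 35.4 FPKM in WT and 66.9 FPKM in STAP-1 KO (ratio 1.89). Eif2b5, which holds the exchange activity, was at 49.5 and 68.3 FPKM (ratio 1.38). eIF2A and eIF2D are alternative initiator tRNA carriers. Eif2a was at 37.3 FPKM in WT and 48.7 FPKM in STAP-1 KO, and Eif2d at 37.7 and 46.5 FPKM. Their log2 ratios were 0.38 and 0.30 as deposited and 0.12 and 0.41 after the length correction.

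eIF3, the large complex that bridges the small subunit and eIF4F, was higher in 12 of 13 subunits. The median log2 ratio was 0.64, the range was -0.10 to 1.01, and 7 subunits (53.8%) were at least 1.5-fold higher, against 25.6% of all genes. After the length correction 1 of 13, Eif3j, was at least 1.5-fold higher, against 24.1% of all genes. Eif3m, a subunit of the octamer core, held the top ratio as deposited and was then the only initiation factor gene at least 2-fold higher. It was at 62.1 FPKM in WT and 125 FPKM in STAP-1 KO, a ratio of 2.01 with a counting interval of 0.86 to 1.16 on the log2 scale. Its value lies on the threshold and was 0.50 on the log2 scale after the length correction, and the next genes were Eif4e at 1.95 and Eif2s2 at 1.92. Of its transcript, 21.9% of 75-base stretches are shared with other genes. Eif3a, the scaffold of the complex, was the single subunit below 0 as deposited, at 85.5 FPKM in WT and 79.5 FPKM in STAP-1 KO. After the length correction Eif3a was at 0.56, while Eif3h (-0.37) and Eif3f (-0.02) were below 0.

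The other octamer subunits covered the range between these. Eif3k was at 192 FPKM in WT and 311 FPKM in STAP-1 KO, Eif3l at 141 and 230 FPKM, and Eif3e at 114 and 181 FPKM. Those 3 subunits had ratios of 1.58 to 1.63. Eif3c was at 103 FPKM in WT and 134 FPKM in STAP-1 KO, Eif3f at 108 and 128 FPKM, and Eif3h at 103 and 113 FPKM. Their ratios were 1.10 to 1.30. The module of Eif3b, Eif3g and Eif3i, which sits near the mRNA entry side of the ribosome, was higher throughout. Eif3g was at 209 FPKM in WT and 354 FPKM in STAP-1 KO, Eif3i at 151 and 260 FPKM, and Eif3b at 191 and 256 FPKM. Eif3d, which can itself bind the cap of some mRNAs, was at 133 and 207 FPKM. Eif3j, the loosely bound subunit, was at 5.35 FPKM in WT and 6.09 FPKM in STAP-1 KO, with a counting interval of -0.07 to 0.44 that includes 0. Of its transcript, 51.0% of 75-base stretches recur in other genes and 37.7% in the duplicate Eif3j2, which is not listed under that symbol in the expression data.

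Promoter windows were searched on both strands for the E-box (CACGTG, bound by MYC with MAX) and the ETS motif (CCGGAAG, bound by GABP and other ETS factors). The window was 250 bases before to 50 after each start in the RefSeq promoter table (GRCm38.p6), and 41 of 53 members had one. The E-box letters were in a window of 10 members (24.4%), against 12.35% of 8658 expressed genes and 7.15% of all windows. The ETS letters were in 16 members (39.0%), against 21.9% of expressed genes and 8.86% of all windows. Neither motif contains the other. Members with an E-box had a median log2 ratio of 0.48 (7 of 10 above 0), and those without one 0.44 (24 of 29). Members with ETS letters had a median of 0.65 (12 of 16 above 0), and those without 0.42 (19 of 23). The letters thus did not separate higher from lower members. Myc itself was at 59.3 FPKM in WT and 169 FPKM in STAP-1 KO, and its part in these values was not tested.

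The windows of Eif4e, Eif4g1 and Eif4a1, 1 gene for each subunit of eIF4F, and of Eif3m, the member with the top deposited ratio, are shown from 250 bases before to 30 after the start, 5′ to 3′ on the strand of the gene, with the motif in capitals. These 3 eIF4F genes were chosen because they hold E-box letters, which the windows of their paralogs Eif4a2 and Eif4g3 do not. Eif4e, at 1 of its 2 starts in the table, lies at chr3:138527018-138527297 (plus strand), with E-boxes that begin 228 and 64 bases before the start. Eif4g1, at 1 of its annotated starts, lies at chr16:20672477-20672756 (plus strand), with E-boxes 54 bases before and 15 bases after the start. Eif4a1 lies at chr11:69672394-69672673 (minus strand), with an E-box 189 bases before the start. Eif3m lies at chr2:105016998-105017277 (minus strand), with ETS letters 55 bases before the start.
Eif4e: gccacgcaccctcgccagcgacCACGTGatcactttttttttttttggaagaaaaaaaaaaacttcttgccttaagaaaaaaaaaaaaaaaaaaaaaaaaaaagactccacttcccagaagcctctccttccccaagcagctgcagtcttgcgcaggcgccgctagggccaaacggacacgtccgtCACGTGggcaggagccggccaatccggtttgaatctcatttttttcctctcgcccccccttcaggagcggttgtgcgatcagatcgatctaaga
Eif4g1: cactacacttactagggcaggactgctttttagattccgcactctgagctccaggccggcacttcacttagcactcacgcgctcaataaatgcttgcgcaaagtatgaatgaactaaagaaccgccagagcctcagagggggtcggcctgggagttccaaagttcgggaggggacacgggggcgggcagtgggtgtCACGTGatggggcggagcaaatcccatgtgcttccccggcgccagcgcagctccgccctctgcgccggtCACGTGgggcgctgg
Eif4a1: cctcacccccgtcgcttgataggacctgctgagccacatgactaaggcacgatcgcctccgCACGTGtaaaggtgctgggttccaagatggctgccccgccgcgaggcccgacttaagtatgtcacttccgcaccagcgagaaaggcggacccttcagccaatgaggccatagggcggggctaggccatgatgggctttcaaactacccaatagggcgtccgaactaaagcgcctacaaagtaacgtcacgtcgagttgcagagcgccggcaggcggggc
Eif3m: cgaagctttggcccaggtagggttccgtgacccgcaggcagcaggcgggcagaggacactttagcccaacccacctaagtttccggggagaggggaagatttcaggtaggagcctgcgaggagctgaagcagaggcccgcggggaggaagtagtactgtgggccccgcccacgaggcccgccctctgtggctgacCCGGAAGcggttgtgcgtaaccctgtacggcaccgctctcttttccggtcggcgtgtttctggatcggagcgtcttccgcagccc
A match says only that these letters stand in the window.

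The eIF4 genes did not move together. Of the 15 eIF4 genes that averaged 1 FPKM or more, 7 had a log2 ratio above 0 and 8 below, with a range of -1.64 to 0.96. Their median of -0.0018 turned to 0.04 with the median of all genes set to 0 and to 0.10 with both libraries scaled to the same sum of FPKM. None was at least 2-fold higher, and 3 of 15 were at least 2-fold lower, a share near the 22.9% of all genes. The cap-binding protein and its helicase were higher. Eif4e was at 64.3 FPKM in WT and 126 FPKM in STAP-1 KO, a ratio of 1.95. The helicase gene Eif4a1 was at 43.5 FPKM in WT and 77.1 FPKM in STAP-1 KO, a ratio of 1.77. Of the Eif4a1 transcript, 62.9% of 75-base stretches occur in other genes, mostly the pseudogene Eif4a-ps4. Its paralog Eif4a2 was at 41.3 and 55.6 FPKM. Eif4a3, a helicase of the exon junction complex, was at 88.2 and 157 FPKM.

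The scaffold genes Eif4g1 and Eif4g3 were lower. Eif4g1, the main eIF4G (chromosome 16, 20668313 to 20692884), was at 75.8 FPKM in WT and 27.7 FPKM in STAP-1 KO, which is 2.73-fold lower. Eif4g3, a second eIF4G, was at 19.0 FPKM in WT and 6.06 FPKM in STAP-1 KO, which is 3.14-fold lower. After the length correction these log2 ratios went from -1.45 to -0.80 and from -1.64 to -0.63, and neither gene was past 2-fold. Eif4g2, also called DAP5, which lacks the eIF4E-binding part, was at 278 and 152 FPKM, 1.82-fold lower as deposited and above 0 (0.14) after the length correction. The ratio of Eif4e to Eif4g1 was 0.849 in WT and 4.53 in STAP-1 KO in FPKM, and that of Eif4a1 to Eif4g1 was 0.574 and 2.78. Eif4a1 has the shorter transcript, and its log2 ratio was 0.52 after the length correction, so its distance from Eif4g1 narrowed.

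The 4E-BPs, which keep eIF4E from eIF4G, were split as deposited. Eif4ebp1 was at 104 FPKM in WT and 180 FPKM in STAP-1 KO, Eif4ebp2 at 14.2 and 8.78 FPKM, and Eif4ebp3 at 2.40 and 0.810 FPKM. After the length correction the log2 ratio of Eif4ebp2 went from -0.69 to -0.04. Eif4ebp3 rests on an estimated 9.7 and 4.5 reads, with a counting interval of -3.38 to 0.20 that includes 0. In addition, 64.2% of 75-base stretches of the Eif4ebp3 transcript lie in a read-through gene (AC115631.1) that joins it to Ankhd1. The ratio of Eif4ebp1 to Eif4e in FPKM was 1.62 in WT and 1.43 in STAP-1 KO as deposited. With the length correction the log2 ratios were 0.43 for Eif4ebp1 and 1.63 for Eif4e, so these genes lay further apart. Of the remaining eIF4 genes, 2 were higher by less than 1.5-fold. Eif4e2, an eIF4E relative, was at 53.1 FPKM in WT and 75.5 FPKM in STAP-1 KO, a ratio of 1.42. Eif4h, a helicase cofactor, was at 207 and 257 FPKM, a ratio of 1.24. The others lay nearer to even. Eif4b, the larger relative of Eif4h, was at 64.7 FPKM in WT and 63.8 FPKM in STAP-1 KO. Eif4enif1, the eIF4E transporter, was at 27.2 and 24.5 FPKM. Eif4e3, another eIF4E relative, was at 16.7 FPKM in both libraries. The oocyte form Eif4e1b was listed at 0 in both.

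**Figure D2:**
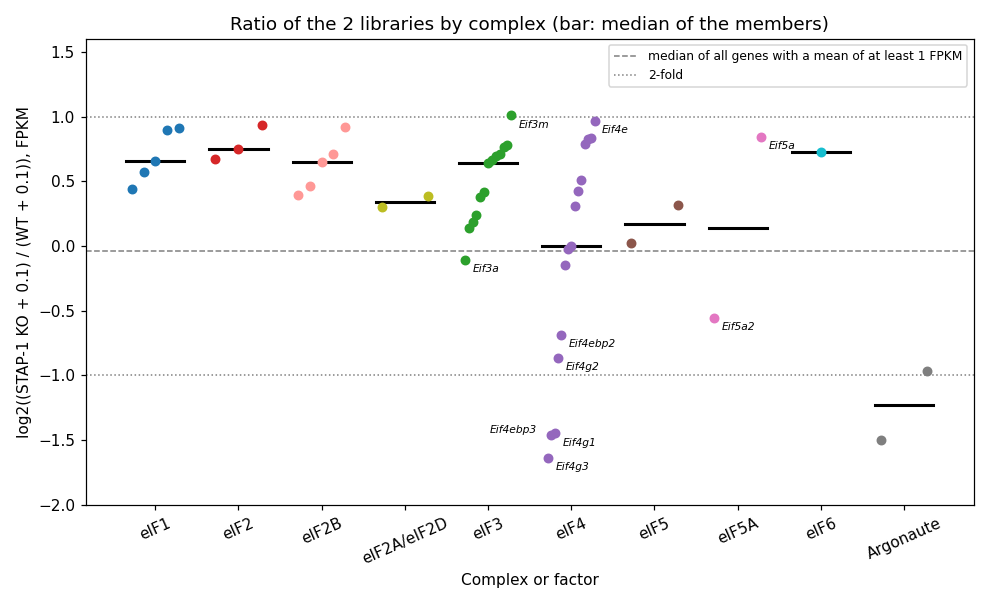
Log2 ratio of STAP-1 KO over WT (0.1 FPKM added) for the 50 members averaging 1 FPKM or more, by complex, with bars at each median, a dashed line at the median of all genes and dotted lines at 2-fold. The eIF2 points cluster at 0.67 to 0.93, while the eIF4 points spread from -1.64 to 0.96.

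Eif5a was the most abundant initiation factor mRNA in both libraries. It lies on chromosome 11, 69916714 to 69921958, and was at 1219 FPKM in WT and 2182 FPKM in STAP-1 KO, a ratio of 1.79 with a counting interval of 0.81 to 0.87 on the log2 scale. It stood at percentile 99.6 of the genes averaging 1 FPKM or more in WT and at 99.9 in STAP-1 KO. Its paralog Eif5a2 was at 3.54 FPKM in WT and 2.38 FPKM in STAP-1 KO, so the ratio of Eif5a to Eif5a2 was 344 and 918. Dhps, the enzyme of the first hypusine step, was at 25.6 and 38.5 FPKM. Dohh, the enzyme of the second step, was at 46.1 and 70.3 FPKM. As deposited, both enzymes were higher like Eif5a. With the length correction the log2 ratios were 0.40 for Eif5a, 0.11 for Eif5a2, 0.07 for Dhps and 0.16 for Dohh, so Eif5a2 no longer went the other way.

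The late factors were all above 0. Eif5, the GTPase activator of eIF2, was at 117 FPKM in WT and 145 FPKM in STAP-1 KO. Eif5b, which joins the large subunit, was at 15.6 and 15.8 FPKM. Eif6, which keeps the large subunit from joining early, was at 101 and 167 FPKM, a ratio of 1.65. Eif6 had the highest log2 ratio of these as deposited (0.73), whereas after the length correction Eif5b was at 1.03, Eif5 at 0.62 and Eif6 at 0.28. The Argonaute genes were all lower as deposited, and 2 of 4, Eif2c1 (0.17) and Eif2c3 (0.04), were above 0 after the length correction. Eif2c2 (Ago2), the main slicing enzyme, was at 10.7 FPKM in WT and 3.70 FPKM in STAP-1 KO, Eif2c3 at 1.72 and 0.836 FPKM, and Eif2c4 at 1.52 and 0.121 FPKM. Eif2c1 was at 0.875 and 0.460 FPKM. Eif2c4 rests on an estimated 72.2 reads in WT and 8.0 in STAP-1 KO.

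The relation with transcript length touches every comparison above. Across 10862 genes the Spearman correlation of the log2 ratio with the length of the longest coding transcript was -0.40, and across the 50 members it was -0.49, points that share 2 libraries. Of 17 members under 2000 bases, 16 were above 0 (all genes of that length: 67.8%), and the exception was Eif4ebp3. Of 20 members from 2000 to under 4000 bases, 17 were above 0 (all genes: 52.3%). Of 13 members of 4000 bases or more, 5 were above 0 (all genes: 25.0%), and these were Eif1ax, Eif3j, Eif4e, Eif5 and Eif5b. Eif4e and Eif4g1 have like lengths, 4991 and 5638 bases, and opposite log2 ratios of 0.96 and -1.45.

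**Figure D3:**
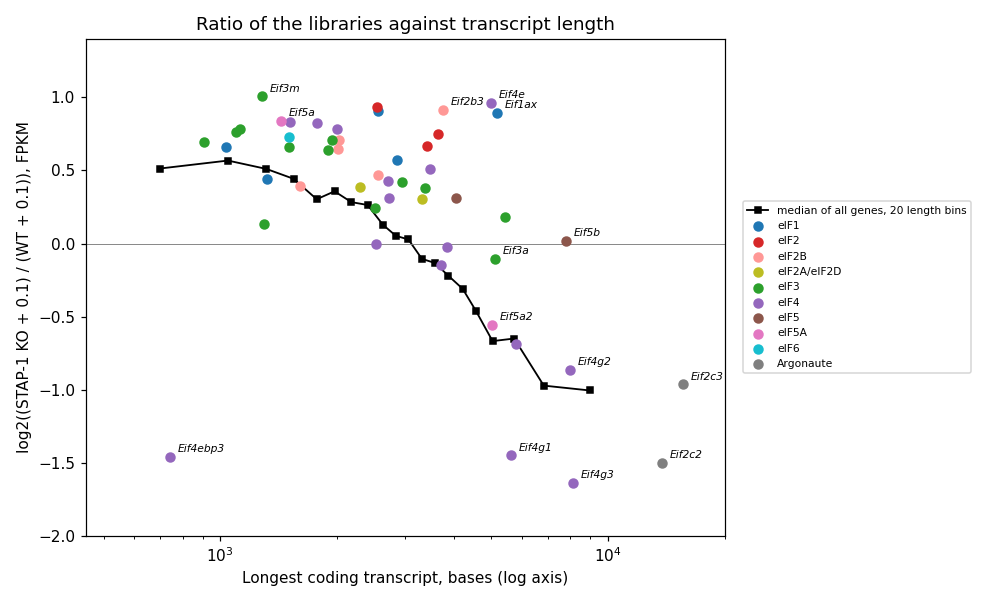
Log2 ratio of STAP-1 KO over WT against length of the longest coding transcript (log axis, bases) for the 50 members averaging 1 FPKM or more, by complex; black squares are medians of all genes in 20 length bins. The line falls with length, most members lie above it, and Eif4ebp3, Eif4g1, Eif4g3 and Eif2c2 lie farthest below it.

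For the length correction, genes were put in 20 bins of length and the median of the bin was taken off each log2 ratio. The median of the members was then 0.29, and 39 of 50 (78.0%) were above 0, against 50.0% of all genes. eIF2 changed least, with a median of 0.81 and a spread over its 3 genes of 0.77 to 0.88. The eIF3 median was 0.29 with 11 of 13 above 0, and Eif3a went to 0.56 while Eif3h went to -0.37. The eIF4 median was 0.18 with 9 of 15 above 0. Eif4g1 stayed below at -0.80 and Eif4g3 at -0.63, whereas Eif4g2 went to 0.14. Eif4e went to 1.63, the top value of all members, and Eif5a to 0.40. The correction took the longest annotated coding transcript, and the transcript expressed in these cells was not determined. Values of genes with several transcripts, Eif4e, Eif1ax and Eif5b among them, depend on that choice. Past 2-fold above on this scale were Eif1ax, Eif2b3, Eif4e and Eif5b (4 of 52, against 11.6% of all genes). Eif2c4 and Eif4ebp3 were past 2-fold below (2 of 52, against 18.9%). Eif5b was at 0.02 as deposited, so its call comes from the correction alone.

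**Figure D4:**
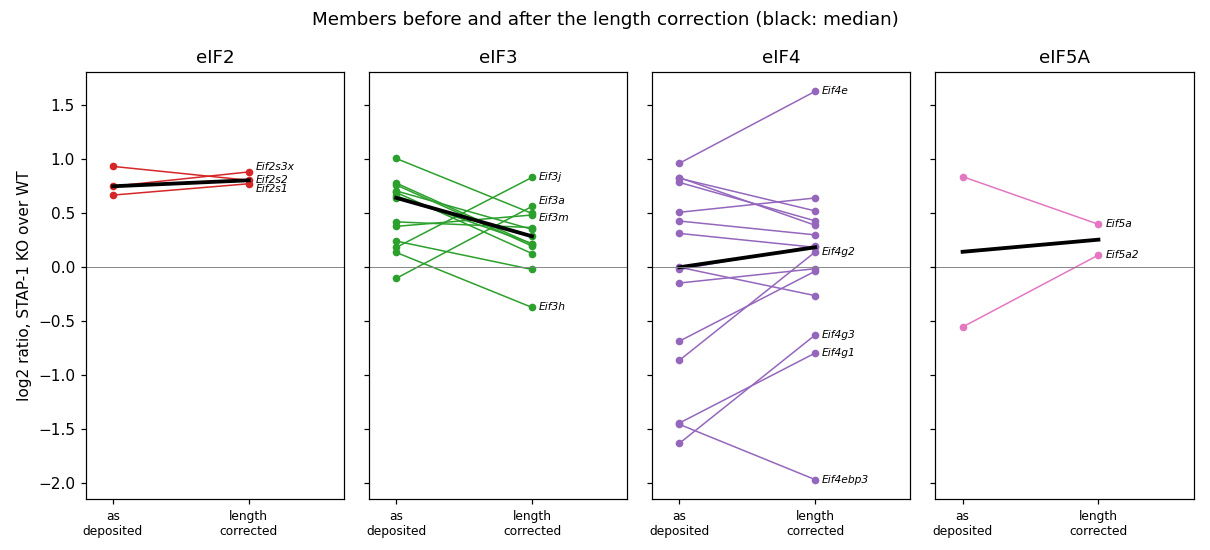
Log2 ratio as deposited and after the length correction for the genes of eIF2, eIF3, eIF4 and eIF5A, each line a gene and the black line the median. The 3 eIF2 genes stay at 0.67 to 0.93, the eIF3 median goes from 0.64 to 0.29, and Eif4g1, Eif4g3 and Eif4ebp3 remain the lowest eIF4 genes.

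Genes that act on the initiation factors were listed for comparison. The eIF2 kinases and phosphatase subunits had a median log2 ratio of -1.16, with 4 of 6 at least 2-fold lower (22.9% of all genes) and Eif2ak2 above 0. Ppp1r15a (GADD34, a subunit that directs eIF2 alpha dephosphorylation) was at 417 FPKM in WT and 148 FPKM in STAP-1 KO, and Ppp1r15b at 36.0 and 14.4 FPKM. The kinase genes Eif2ak3 (PERK) and Eif2ak4 (GCN2) were at 7.87 and 2.72 FPKM and at 9.78 and 4.80 FPKM. The median of this list after length correction was -0.50. Ppp1r15a (-1.54) and Eif2ak3 (-1.04) were still past 2-fold then, and Ppp1r15b (-0.66) and Eif2ak4 (-0.34) were not. The eIF4E kinases and TOR arm had a median of -1.43, with 4 of 6 at least 2-fold lower (22.9% of all genes). Rps6kb1, for a kinase below mTOR, went the other way, at 16.7 FPKM in WT and 20.4 FPKM in STAP-1 KO. Mtor was at 5.44 FPKM in WT and 0.968 FPKM in STAP-1 KO, and its partner Rptor at 6.90 and 2.33 FPKM. Mknk1 and Mknk2, whose kinases phosphorylate eIF4E, were at 77.6 and 27.3 FPKM and at 78.6 and 30.7 FPKM. After length correction the median of that list was -0.90. Rptor (-0.55) was no longer past 2-fold then, and Rps6kb2 turned from -0.21 to 0.25.

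Of the other translation genes, the cofactor, elongation and release factor lists had medians above 0 as deposited. The helicases and cofactors had a median log2 ratio of 0.36, with 6 of 10 above 0 (48.3% of all genes). None was past 2-fold, against 12.3% of all genes higher and 22.9% lower. Of the 4 below 0, Pabpc1 was at -0.27 as deposited and -0.32 after the length correction. Denr was at 62.0 and 102 FPKM, its partner Mcts1 at 114 and 163 FPKM, Paip2 at 219 and 301 FPKM and Paip1 at 1.57 and 2.38 FPKM. The elongation factors had a median of 0.56, with 5 of 7 above 0 (48.3% of all genes). Eef1d was at 74.6 FPKM in WT and 161 FPKM in STAP-1 KO, and Eef1e1, whose protein belongs to a tRNA synthetase complex, at 81.2 and 180 FPKM. Eef1g was at 34.8 and 58.8 FPKM, and Eef2k, the kinase that inhibits eEF2, at 73.0 and 41.0 FPKM. The 3 release factor genes were all above 0 (48.3% of all genes). Gspt2 was at 1.23 and 2.09 FPKM, Gspt1 at 46.1 and 54.7 FPKM and Etf1 at 76.7 and 85.3 FPKM. The mitochondrial initiation factors Mtif2 (29.0 and 22.2 FPKM) and Mtif3 (5.44 and 5.20 FPKM) had log2 ratios below 0. After the length correction the medians were 0.24 for the cofactors, 0.21 for the elongation factors and 0.38 for the release factors, and 6 genes of these lists changed sign. Ddx3x, Dhx29, Larp1, Eef2k (0.14) and Mtif3 (0.60) turned to above 0, and Eef1a1 (-0.14) turned to below.

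The libraries also differed in cell markers and in depth. Kit, a marker of the sort, was at 468 FPKM in WT and 30.1 FPKM in STAP-1 KO. All 8 mast cell and basophil markers were at least 2-fold lower in STAP-1 KO (22.9% of all genes). They summed to 7.48% of all FPKM in WT and 0.700% in STAP-1 KO. All 5 granulocyte precursor markers were at least 2-fold higher, against 12.3% of all genes, and summed to 0.0868% and 0.765% of all FPKM. Of 5 markers of dividing cells, 3 were at least 2-fold higher (12.3% of all genes) and Top2a was 1.13-fold higher. Mki67 was at least 2-fold lower (17.4 and 7.89 FPKM). After the length correction the log2 ratios were 0.85 for Top2a and -0.13 for Mki67. Ly6a, Cd34 and Ptprc were also lower, and both erythroid markers found lay within 1.5-fold. In bulk RNA fewer cells of a type and less RNA per cell cannot be told apart, and the part of these markers in the initiation factor values was not tested. Depth estimated from the steps of low values was about 7500000 reads for WT and 10470000 for STAP-1 KO. The intervals above use it and cover counting error only. They included 0 for 5 of the 50 members, Eif3j, Eif4b, Eif4e3, Eif4ebp3 and Eif5b.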

How the data were processed

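The authors deposited FPKM values for 1 WT and 1 STAP-1 KO library, made per the labels and the study's methods from SMART-Seq v4 cDNA, Nextera XT libraries and 75-base reads mapped to mm10 with TopHat2 2.0.13 and Bowtie2 2.2.3 and summarized with Cufflinks (Cuffnorm) 2.2.1. The annotation, the scaling between libraries and the total reads are not given in the sources used here. The notes and the methods name different RNA kits and SAMtools versions.

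Log2 ratios used a pseudocount of 0.1 FPKM, and 2-fold counts left the values as deposited and took genes that reached 0.1 FPKM in each library. Transcript lengths and shared 75-base stretches came from GENCODE M21 (20911 of 23284 symbols matched as written, 1914 through an older symbol). The length correction subtracted the median of 20 bins. Reads were estimated from FPKM steps, with Poisson-based 95% intervals. These steps rest on 321 and 396 low values, 47.4% and 48.7% of which lay within 0.01 of a whole read (2% by chance). The effective transcript length used for them was 208 bases under the annotated one. Python 3.11.15, numpy 2.4.6, pandas 2.3.3, scipy 1.17.1 and matplotlib 3.10.9 were used, and the scripts were tested on simulated data. No p-value was computed.

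Named were all members averaging 1 FPKM or more, the members below it, up to 4 genes of each related list by log2 ratio at a pseudocount of 1 FPKM, Stap1 and Eif2s3y. Kit, Ly6a, Cd34, Ptprc, Banf1, Myc, Ddx3x, Dhx29, Larp1, Pabpc1, Eef1a1, Mki67, Top2a, Rps6kb1, Rps6kb2 and Eif2ak2 were added after their values were seen. Members and lists were chosen with earlier results of these data known. Alternatives were another pseudocount, floor, fold, scaling, minimum mean, length correction and gene choice.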

Additional observations from a re-analysis of the deposited data

How the results depend on the processing

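Of the medians, single ratio and counts of the text, 35 alternative values stayed within 0.1 on the log2 scale, or within 1.5 times for counts, 19 moved further and 5 reversed. With the length correction the median log2 ratio was 0.29 for all members, 0.29 for eIF3, 0.18 for eIF4 and 0.40 for Eif5a. With the longest transcript of any type these were 0.31, 0.40, 0.14 and 0.43, and eIF2 was 0.87. Scaling both libraries to the same sum of FPKM shifted every ratio by 0.10, to 0.56 for all members, 0.85 for eIF2, 0.75 for eIF3, 0.10 for eIF4 and 0.94 for Eif5a. The eIF4 median, -0.0018 as reported, was also 0.16 over genes averaging 5 FPKM or more and 0.041 with the median of all genes set to 0, so its direction is not settled. The count of members at least 2-fold higher, 1 as reported, was 22 at 1.5-fold, 2 with the median of all genes set to 0, 5 at the same sum of FPKM, 4 with the length correction and 11 at 1.5-fold with it. The count at least 2-fold lower, 6 as reported, was 3 with a floor of 1 FPKM, 2 with the length correction and 3 without the Eif2c genes. The any-type length, the 1.5-fold count with the length correction, the omission of Eif2c genes and the omission of members with over 20% shared stretches were chosen after seeing the data. No paired analysis was possible because each genotype has 1 library, and the low reads of Eif2s3x, Eif2c4 and Eif4ebp3 limit those ratios.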
